A study of Mus musculus with 12 samples.

Results

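Amino acid transporters were taken as the protein-coding mouse genes whose symbols start with Slc1a, Slc3a, Slc6a, Slc7a, Slc36a, Slc38a or Slc43a followed by a number. The rule found 64 of 21883 protein-coding genes, among them Slc7a6os, whose symbol fits the rule but which is not a transporter. Binding of the glucocorticoid receptor (GR) to DNA near these genes was read from chromatin immunoprecipitation followed by sequencing (ChIP-seq) in BWTG3 cells, a line derived from a mouse hepatoma. All cells were starved for 24 h in optimem medium before use, and chromatin was pulled down with a rabbit antibody to GR. The group TNFDEX (3 libraries) received 1000 U/ml of tumour necrosis factor (TNF), an inflammatory cytokine, 1 h before 1 µM dexamethasone (Dex), a synthetic ligand of GR. The group DEX (3 libraries) received 1 µM Dex alone, and the group TNF (2 libraries) received 1000 U/ml TNF alone, with 3 h of stimulation in total. The group NI (3 libraries) was read as cells without either agent, since its titles name neither. The study's design text calls the replicates biological, and they come from 1 cell line, so the spread below is that between cultures of this line. The series asks how TNF changes the binding of GR to DNA.

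Amino acid transporters sit in the plasma membrane and in lysosomes and set how much glutamine, branched-chain amino acids, cystine, arginine and taurine a cell takes up or exchanges. In liver, system A carriers of the Slc38 family bring in alanine and glutamine for gluconeogenesis, a programme that glucocorticoids are known to raise. Heteromeric exchangers pair a light chain of the Slc7 family with a heavy chain of the Slc3 family, and amino acid shortage induces several of these genes through the transcription factor ATF4. GR without ligand is mostly cytoplasmic. With ligand it enters the nucleus and binds pairs of the hexamer AGAACA and its reverse complement, often far from the genes it controls.

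The promoters of 4 members are shown first, because most of the GR regions described below lie away from them. They are the RefSeq windows of GRCm38.p6, whose coordinates are those of mm10, 300 bases long and beginning 250 bases before a listed start, printed 5′ to 3′ on the strand of the gene. The windows lie at chr3:50443564-50443863 (minus strand) for Slc7a11, chr15:97020310-97020609 (minus strand) for Slc38a4, chr19:8713848-8714147 (minus strand) for Slc3a2 and chr2:102706188-102706487 (plus strand) for Slc1a2. They were chosen because Slc7a11 has the most GR regions among the members, Slc38a4 has the strongest one, Slc3a2 has a region at its start, and the Slc1a2 gene has the region found in every library. Capitals mark every match, on either strand, to the GR hexamer AGAACA, the spaced pair ACANNNTGT, the C/EBP-type motif TTGCNNAA, the AP-1-type motif TGANTCA, the NF-kB-type motif GGGNNNTCC or the ATF4-type motif TGATGNAA, of which the first pair can overlap.
Slc7a11: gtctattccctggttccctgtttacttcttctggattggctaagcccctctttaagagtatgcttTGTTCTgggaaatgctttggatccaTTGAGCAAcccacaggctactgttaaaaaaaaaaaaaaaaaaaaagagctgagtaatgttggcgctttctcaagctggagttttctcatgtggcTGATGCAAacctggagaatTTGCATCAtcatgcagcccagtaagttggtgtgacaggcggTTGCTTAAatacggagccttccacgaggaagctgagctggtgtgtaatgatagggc
Slc38a4: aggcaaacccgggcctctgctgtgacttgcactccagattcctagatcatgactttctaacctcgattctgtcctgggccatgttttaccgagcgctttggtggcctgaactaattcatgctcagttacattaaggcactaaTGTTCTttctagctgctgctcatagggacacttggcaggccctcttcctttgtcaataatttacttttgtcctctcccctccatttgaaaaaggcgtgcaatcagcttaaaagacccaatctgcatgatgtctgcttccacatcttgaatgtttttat
Slc3a2: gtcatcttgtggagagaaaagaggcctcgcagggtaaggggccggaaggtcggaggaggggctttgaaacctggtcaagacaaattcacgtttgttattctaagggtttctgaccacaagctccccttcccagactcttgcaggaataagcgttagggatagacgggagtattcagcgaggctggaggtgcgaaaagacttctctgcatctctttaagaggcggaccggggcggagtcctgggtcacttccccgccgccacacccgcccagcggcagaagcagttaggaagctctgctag
Slc1a2: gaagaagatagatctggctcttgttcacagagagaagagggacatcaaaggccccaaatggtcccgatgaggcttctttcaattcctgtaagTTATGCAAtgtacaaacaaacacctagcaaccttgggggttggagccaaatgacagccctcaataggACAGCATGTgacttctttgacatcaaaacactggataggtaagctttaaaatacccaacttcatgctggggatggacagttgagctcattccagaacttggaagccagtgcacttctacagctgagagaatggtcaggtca
Counted from 0 at the listed start, the Slc7a11 window holds TGATGCAA at -66 to -59 and its reverse complement TTGCATCA at -47 to -40. This facing pair is known as the amino acid response element through which ATF4 drives the gene. The Slc38a4 window holds 1 hexamer at -108 to -103, the Slc1a2 window holds the spaced pair ACAGCATGT at -91 to -83, and none of the motif letters were found in the Slc3a2 window. A promoter sequence was at hand for 46 of the 64 genes, in 67 windows, so a gene with several listed starts counts more than once. Slc7a7, a member without a called region, gave several of the windows with the hexamer and some with the ATF4-type motif. Some of its windows overlap. The hexamer was found in 13 of these 67 windows (19.4%), against 16.2% of 21237 windows of all protein-coding genes, and the ATF4-type motif in 5 (7.46%), against 3.6%. The spaced pair was in 8.96% of member windows and 5.97% of all windows, the C/EBP-type motif in 13.4% and 10.2%, the AP-1-type motif in 13.4% and 6.99%, and the NF-kB-type motif in 20.9% and 19.5%. Such matches describe letters and are not shown to be sites. A GR peak overlapped the promoter window of Slc1a2 and of Slc43a2 in TNFDEX 1, of Slc1a4 in DEX 1, of Slc3a2 in DEX 2 and of Slc38a10 in TNF 1, and no member window was overlapped in more than 1 library.

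In the binding data, peaks of the 11 libraries that shared at least 1 bp were merged into 47493 regions, and a region counted as called in a group if peaks of 2 or more of the group's libraries fell in it. A region was assigned to a member when its centre lay inside the gene or within 50 kb of it. Values are the authors' normalized tag counts, which are tags in a peak per 20000000 tags of the library, and where a library has no peak its level is not known. Libraries held 39228805 to 51141996 tags. They fell into 6 with a summed normalized tag count of 1289.9 to 6953.2 over peaks on the mitochondrial genome (TNFDEX 1, DEX 1, DEX 2, TNF 1, NI 1 and NI 2) and 5 with 70983.1 to 108166.1 (TNFDEX 2, TNFDEX 3, DEX 3, TNF 2 and NI 3), a split the labels do not explain. List length differed more than tags did, from 2524 peaks in NI 3 to 22590 in TNFDEX 1. Nuclear peaks held 0.1065% of the tags of NI 3 and 2.91% of those of TNFDEX 1. The share of a library's peaks that lay near members ran from 0.3388% in TNF 2 to 0.4962% in DEX 1. Calls below are to be read with these list lengths, and counts with equal numbers of peaks are given at the end. The peak lists hold no RNA, so the labelled hepatoma origin could not be checked by expression. A GR region was called near 14 of 15 hepatocyte marker genes in TNFDEX and 14 in DEX, near 4 and 5 of 7 macrophage markers, and near 4 and 4 of 7 stromal or endothelial markers. A GR region at a marker gene is no measure of its expression.

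A called GR region lay near 24 of the 64 transporter genes in TNFDEX, near 22 in DEX, near 1 in TNF and near 5 in NI. As shares these were 37.5%, 34.4%, 1.56% and 7.81%, beside 39.4%, 36.5%, 6.08% and 14.9% of all protein-coding genes. The members with Dex in the medium were thus close to the background of all genes, and the counts in TNF and NI lay below it, without a test. By length of sequence searched, the member windows held 4.963 called regions per Mb in TNFDEX, 4.358 in DEX, 0.1211 in TNF and 0.6053 in NI, against 4.853, 4.063, 0.3855 and 0.9163 per Mb in the windows of all genes. In single libraries, 41, 23 and 29 members had a peak in TNFDEX, 28, 32 and 28 in DEX, 20 and 15 in TNF, and 20, 18 and 11 in NI. The TNFDEX and DEX libraries overlapped, and each of them lay above every TNF and NI library in this count. Over all protein-coding genes that order did not hold. Shares of members and of all genes were 35.94% and 36.12% in TNFDEX 2, 31.25% and 40.75% in TNF 1, and 23.44% and 25.46% in TNF 2. In NI 1, 2 and 3 they were 31.25% and 32.85%, 28.12% and 37.93%, and 17.19% and 16.98%. The members of NI 3 were thus not below all genes. The TNF count rests on the need for a peak in both libraries, since it would be 15 without TNF 1 and 20 without TNF 2. The NI count of 5 fell to 1 without NI 1 or without NI 2, since in 4 of these 5 genes the calls came from that pair.

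**Figure D1:**
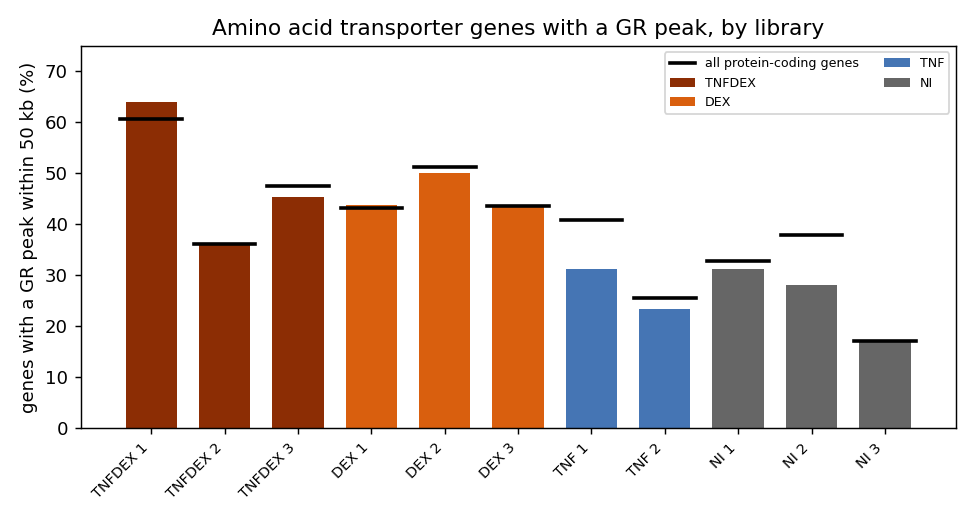
Share of the 64 amino acid transporter genes (bars, percent) with at least 1 GR peak inside or within 50 kb, in each library, with the share of all protein-coding genes as black lines. Bars run from 17.2% in NI 3 to 64.1% in TNFDEX 1 and lie near the line of their own library in the TNFDEX and DEX libraries.

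Of 205 regions near the members, 133 were found in a single library and 52 were called in at least 1 group, 41 in TNFDEX, 36 in DEX, 1 in TNF and 5 in NI. Of these 52 regions, 23 lay inside a member and 29 outside, and for 21 the nearest protein-coding gene was not a transporter. The assignment to a transporter is therefore by distance, and the gene a region acts on was not tested. Of the 28 members with a called region, 14 had 1, 6 had 2, 5 had 3, 2 had 4 and Slc7a11 had 6. A shared region served both members of the neighbouring pairs Slc43a1 and Slc43a3, Slc6a12 and Slc6a13, and Slc6a18 and Slc6a19. The high-mitochondrial libraries of the groups without Dex contributed little, with 1 of the 52 regions holding a peak in TNF 2 and 1 in NI 3, against 18 in TNF 1, 5 in NI 1 and 13 in NI 2.

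**Figure D2:**
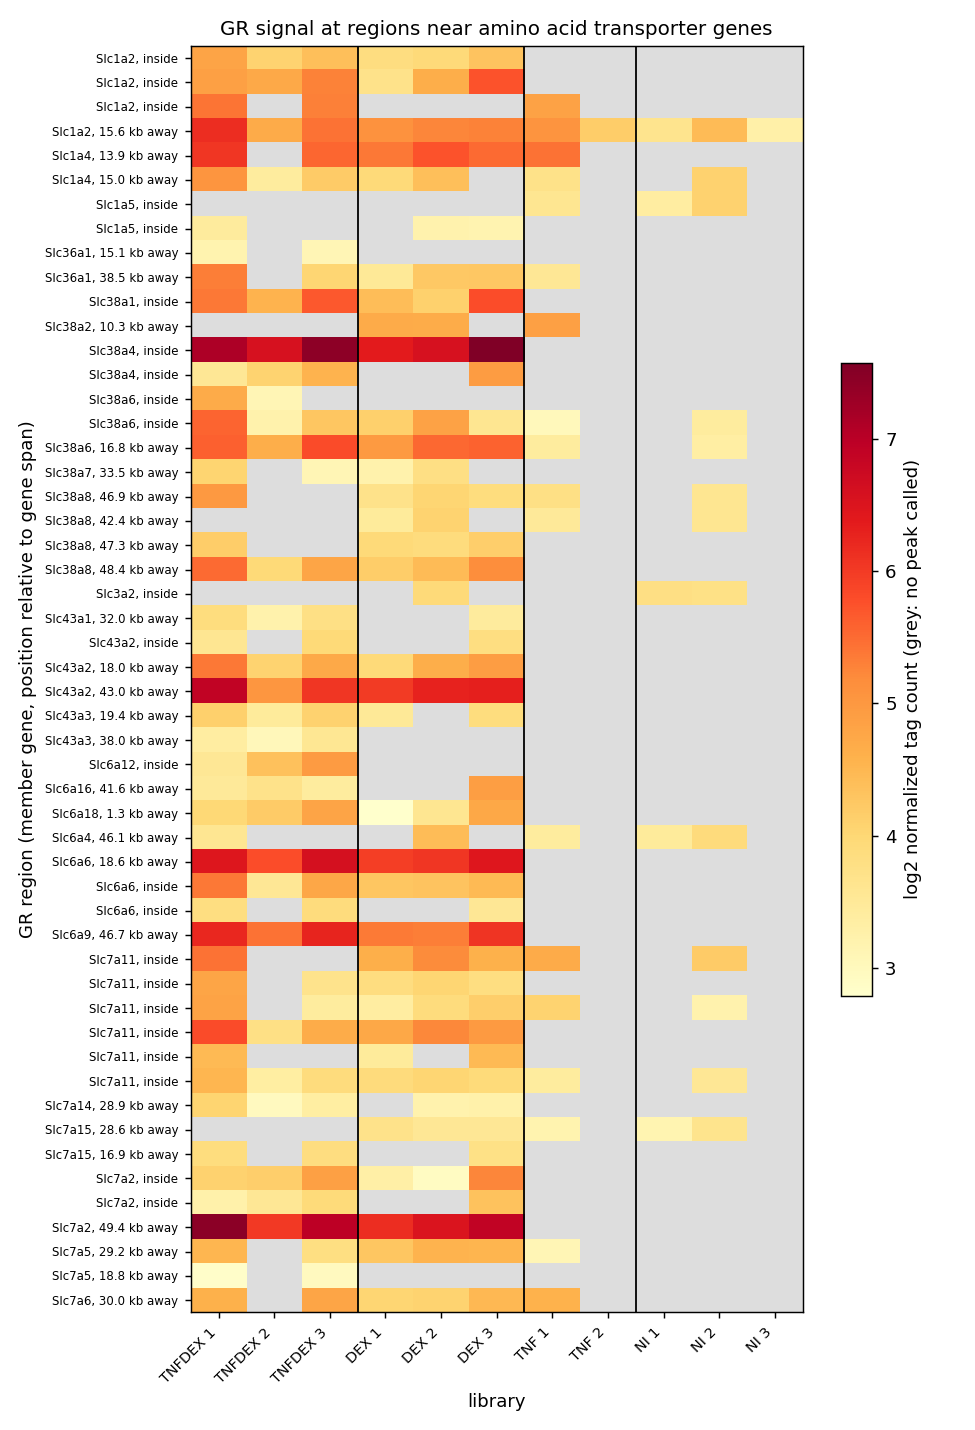
Log2 normalized tag count (colour) at the 52 regions called in at least 1 group (rows, named by a member gene and the distance to it) in the 11 libraries (columns, grouped as TNFDEX, DEX, TNF and NI), with grey where no peak was called. Colour fills most of the TNFDEX and DEX columns, 1 row near Slc1a2 is filled in every column, and TNF 2 and NI 3 are grey elsewhere.

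DEX against NI asks where ligand brings GR to these genes. With Dex, 19 transporters had a called region and none in NI, 29.7% of the 64, against 24.7% of all protein-coding genes. They were the system A carriers Slc38a1, Slc38a2 and Slc38a4, the other Slc38 members Slc38a6, Slc38a7 and Slc38a8, the cationic carrier family members Slc7a2 and Slc7a14, the light chains Slc7a5, Slc7a6 and Slc7a11, the Slc6 members Slc6a6, Slc6a9, Slc6a18 and Slc6a19, and Slc1a4, Slc36a1, Slc43a2 and Slc43a3. Slc1a2, Slc1a5 and Slc7a15 had called regions in both groups, while Slc3a2 and Slc6a4 had one in NI and none in DEX. The shares of all genes with these patterns are not given here, so they are not read as particular to transporters. Counted by region, 20 of the 124 member regions seen in either group had a peak in every DEX library and in no NI library (16.1%, against 12.9% of all regions), and 0 had the opposite pattern. The share of all regions with that opposite pattern is not given here. It needs a peak in NI 3, whose list of 2524 peaks is the shortest.

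Among the system A carriers, which import small neutral amino acids with sodium, Slc38a4 had the strongest region of the set. It lies inside the gene at chr15:97004407-97004598, 15.86 kb downstream of the start whose promoter is printed above. Its normalized tag counts were 83.3, 95.3 and 191.3 in DEX 1, 2 and 3, and no NI library had a peak. The carrier encoded by this gene is enriched in liver, where it takes up alanine. Slc38a1 had 1 region inside the gene with 21.3, 17.3 and 55.6 in DEX and no peak in NI. Slc38a2, known for its induction by amino acid shortage, had a region 10.28 kb upstream of its start with 25.8 and 25.5 in DEX 1 and DEX 2, none in DEX 3 and none in NI. Peaks at this region were 4.93- to 8.52-fold over the input. The 2 libraries of that call, like TNF 1 with 29.4, are of low mitochondrial signal, and the part of that split in the call was not tested.

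Slc38a6, a family member of less settled substrate, had a region 16.83 kb past the gene with 31.2, 46.4 and 47.8 in DEX against a single NI peak of 10.1 in NI 2. A further region inside Slc38a6 had 17.4, 28.6 and 12.1 in DEX and 10.6 in NI 2. Both DEX sets thus lay above the NI value that exists. Slc38a7, which exports glutamine from lysosomes, had a weak region 33.53 kb away inside Got2, with 9.4 and 13.8 in DEX 1 and DEX 2. Slc38a8 had 4 regions between 42.39 and 48.35 kb away, all of them inside the neighbouring genes Osgin1 or Mbtps1, the strongest with 17.8, 21.9 and 35.8 in DEX and no peak in NI.

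The cationic carrier Slc7a2, which imports arginine, lysine and ornithine and is abundant in liver, had the region with the second highest mean. It lies at chr8:40971406-40971599, 49.43 kb from the gene, inside Pdgfrl and only just within the search window. Its counts were 70.9, 90.7 and 118.9 in DEX, with no peak in NI. A region inside Slc7a2 was weaker, with 9.9, 7.6 and 37.9 in DEX and no NI peak, so its highest value came from DEX 3 alone. Slc7a14 had 9.2 and 9.5 in DEX 2 and DEX 3, 28.91 kb away.

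Slc7a11, the light chain of the cystine and glutamate exchanger that feeds glutathione synthesis, carried 6 called regions, all inside its span on chromosome 3 from 50364936 to 50499087. At 134.2 kb this span is the longest among the members, whose median is 33.9 kb, so its search window is also the longest. Relative to the start whose promoter is printed above, the 6 regions lay at -20.14 kb (upstream) and at 1.101, 2.848, 5.261, 53.82 and 55.16 kb (downstream). The region 2.848 kb downstream had 26.8, 37.7 and 31.4 in DEX and no NI peak. The region at 55.16 kb had 24.8, 36.7 and 24.1 in DEX against 18.4 in NI 2, and the region at -20.14 kb had 14.9, 16.3 and 15.1 against 11.6 in NI 2. DEX values were therefore above the single NI value in each, and NI 1 and NI 3 had no peak at these regions. TNF 1, without Dex, had 25.9 at 55.16 kb, above DEX 1 and DEX 3, and 10.6 at -20.14 kb, below each DEX value. Peaks at 55.16 kb were 4.07- to 9.99-fold over the input. At 5.261 kb TNF 1 had 16.7, beside 10.4, 14.8 and 17.7 in DEX and 9.2 in NI 2. None of the 6 regions touched the promoter window with the ATF4-type pair in any library.

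**Figure D3:**
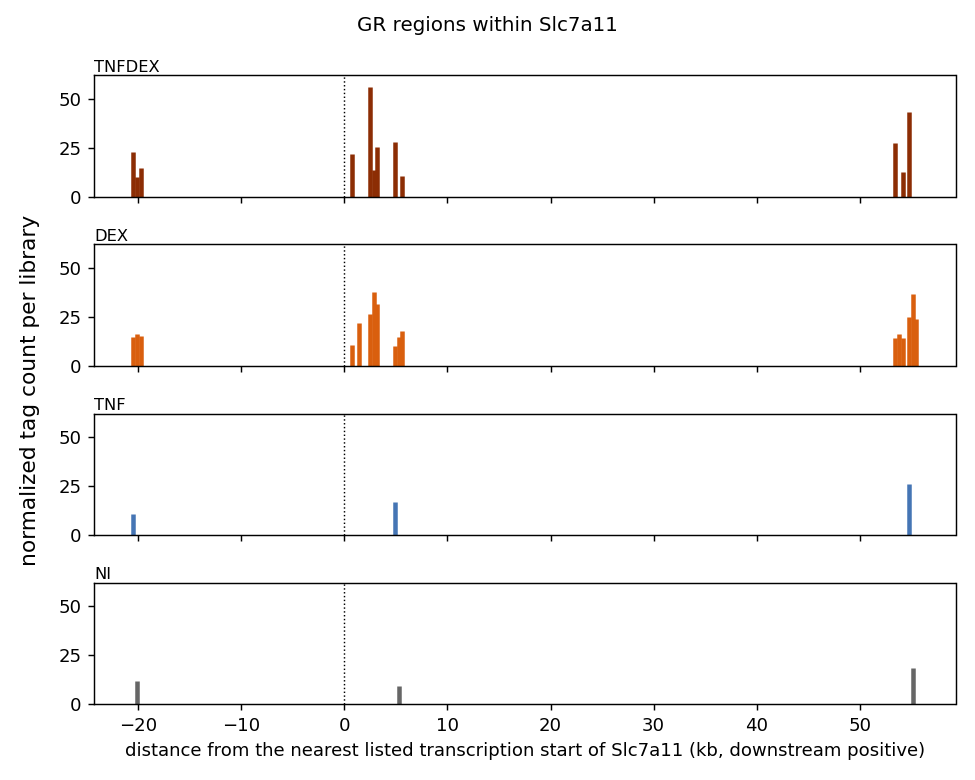
Normalized tag count of each library (bars, drawn side by side in replicate order around the region centre) at the 6 called regions inside Slc7a11, by distance in kb from its listed transcription start (dotted line), for TNFDEX, DEX, TNF and NI. The highest bar is 56.0 in TNFDEX 1 at 2.848 kb, while TNF and NI each have bars at 3 regions, from 1 library.

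The other light chains had regions outside the gene. Slc7a5, which with Slc3a2 exchanges large neutral amino acids such as leucine, had 19.3, 23.5 and 23.3 in DEX at 29.22 kb, no NI peak and 8.6 in TNF 1. Slc7a6 had 16.4, 16.8 and 22.4 in DEX at 29.98 kb, nearer to Esrp2, with no NI peak and with 23.8 in TNF 1, above each DEX value. The authors' fold over the input at the Slc7a6 region was 4.74 to 7.98, close to the 4-fold that a call required. Slc3a2, the heavy chain these light chains need, differed from them. Its region was 0.108 kb downstream of the start printed above, with 15.3 in DEX 2 alone against 13.9 and 13.5 in NI 1 and NI 2, and only the DEX 2 peak reached into the promoter window. These 3 libraries are of low mitochondrial signal.

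Among the Slc6 family, Slc6a6, the taurine transporter, had a region at chr6:91665326-91665588, 18.59 kb from the gene, with 62.5, 66.8 and 87.0 in DEX and no NI peak. A region inside Slc6a6 had 19.3, 19.9 and 22.0 in DEX and no NI peak. Slc6a9, a glycine transporter, had 41.1, 40.3 and 67.6 in DEX at a region 46.7 kb away, nearest to Klf17, and no NI peak. Slc6a18 and Slc6a19, neighbouring carriers of neutral amino acids best known from kidney and intestine, shared a region 1.337 kb from Slc6a18 with 6.9, 12.2 and 26.7 in DEX and none in NI. The serotonin transporter Slc6a4 had a region 46.1 kb away at Nsrp1 with 21.4 in DEX 2 alone, against 10.9 and 15 in NI 1 and NI 2.

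Slc43a2, a carrier of branched-chain and aromatic amino acids, had 3 regions, of which the strongest lay at chr11:75620450-75620637 inside Pitpna, 42.97 kb away, with 63.5, 77.5 and 79.7 in DEX and no NI peak. A second one inside Pitpna had 15.4, 25 and 30.2 in DEX and no NI peak. Slc43a3, a family member that carries purine nucleobases, had 11.4 and 14.6 in DEX 1 and DEX 3 at 19.42 kb. Slc36a1, the proton-coupled carrier of lysosomes and plasma membrane, had 11.4, 18.9 and 19.0 in DEX at 38.51 kb, inside Fat2, no NI peak and 11.7 in TNF 1.

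In the Slc1 family, Slc1a4, an exchanger of alanine, serine and cysteine, had a region 13.89 kb upstream of the gene with 41.6, 53.0 and 45.7 in DEX and no NI peak. TNF 1, without Dex, had 43.1 there, within the DEX range. The authors' fold over the input there was 5.36 to 7.79, low for so many tags. Slc1a5, the glutamine exchanger, had different regions in the 2 groups. A region at its edge had no DEX peak and 10.4 and 16.9 in NI 1 and NI 2, and a region inside the gene had 9.2 and 9.0 in DEX 2 and DEX 3 and no NI peak.

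Slc1a2, the glutamate transporter of astrocytes and perivenous hepatocytes, had the 1 region called in all 11 libraries, at chr2:102806270-102806516, 15.61 kb past the gene and 4.748 kb from Cd44. Its normalized tag counts were 34.2, 38.2 and 39.2 in DEX and 12.4, 21.7 and 9.7 in NI, without overlap, with means of 37.2 ± 2.65 and 14.6 ± 6.30 (SD, n = 3 each). It was the only member region that could be tested between these groups, since a value in every library was needed, which 179 regions had. Scaling by the trimmed mean of M values took 0.85 from each log2 change in DEX against NI, 0.15 in TNFDEX against DEX, 0.35 in TNF against NI, 0.66 in TNFDEX against TNF and 0.81 in TNFDEX against NI, and changes are given relative to these shifts. With limma, the Slc1a2 region was 0.58 log2 units higher in DEX (SE 0.25, 95% interval 0.02 to 1.15), with an adjusted p of 0.163, while 29 of the 179 regions (16.2%) passed an adjusted p of 0.05, 24 higher and 5 lower. With library totals in place of the scaling, the change was 1.43 with an adjusted p of 0.080, and 30 regions passed as higher and 0 as lower. With the replicate number as a block in limma its adjusted p was 0.0265, and with mitochondrial signal as a term it was 0.0238. The call thus depends on the design of the fit. Same-numbered DEX and NI libraries also share low or high mitochondrial signal, so these terms overlap. Without any one library the change ranged from 0.46 to 0.70, higher in DEX each time. Inside Slc1a2, 2 further regions had 14.4, 15.3 and 19.8, and 12.9, 25 and 53.4, in DEX and no NI peak.

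**Figure D4:**
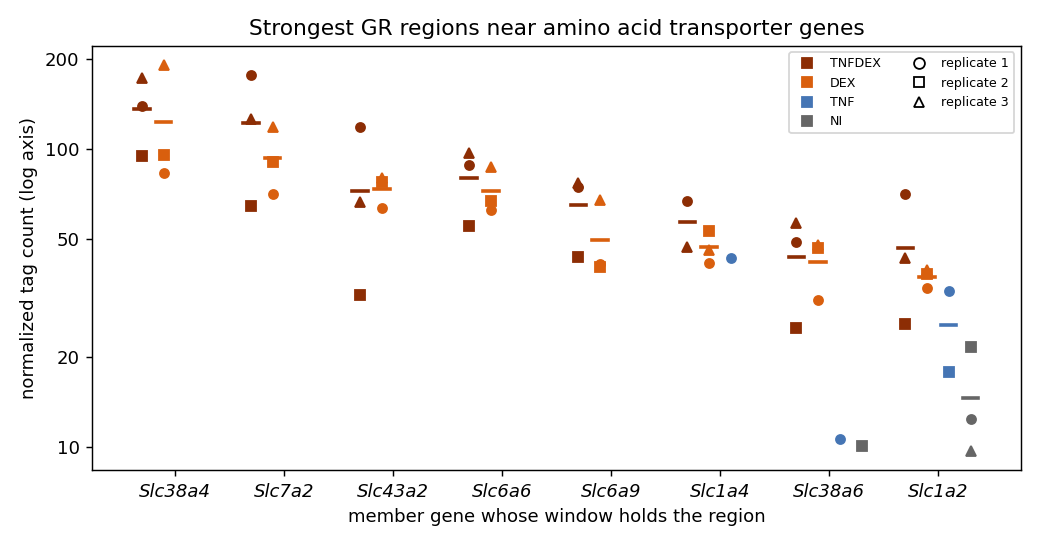
Normalized tag counts (log axis) at the 8 strongest member regions in each library of TNFDEX, DEX, TNF and NI, with circles, squares and triangles for replicates 1, 2 and 3 and a line at the mean of groups with more than 1 value. TNFDEX and DEX points overlap at each region, and NI points appear at Slc38a6 (10.1) and Slc1a2 (9.7 to 21.7).

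TNFDEX against DEX asks whether TNF alters the binding that Dex brings. Stimulation lasted 3 h in total in both groups, and TNFDEX received TNF 1 h before Dex. If the total counts from TNF, Dex acted for a shorter time in TNFDEX than in DEX. An effect of TNF cannot be told apart from such a difference in Dex time. The 8 strongest regions were called in both groups. Of the called regions, 28 were called in both, 13 in TNFDEX but not DEX and 8 in DEX but not TNFDEX. The same split over all regions is not given here, so whether it is particular to transporters was not tested. The gene counts were 20 members in both, 4 in TNFDEX but not DEX (6.25%, against 8.60% of all genes) and 2 in DEX but not TNFDEX (3.13%, against 5.68%). These shares were near or below those of all genes.

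At the 8 strongest regions the ranges of the 2 groups overlapped. The Slc38a4 region had 139.3, 95 and 173.5 in TNFDEX and 83.3, 95.3 and 191.3 in DEX. The Slc7a2 region had 176.7, 64.5 and 126.2 in TNFDEX and 70.9, 90.7 and 118.9 in DEX. The Slc43a2 region had 118.6, 32.5 and 66.6 in TNFDEX and 63.5, 77.5 and 79.7 in DEX. At each of these 3 regions TNFDEX 2 was the lowest TNFDEX library. The Slc6a6 region had 88.8, 55.1 and 97.0 in TNFDEX and 62.5, 66.8 and 87.0 in DEX. The Slc6a9 region had 74.7, 43.4 and 76.9 in TNFDEX and 41.1, 40.3 and 67.6 in DEX. TNFDEX 2 again had the lowest TNFDEX value at both genes. The Slc38a6 region had 48.9, 25 and 56.3 in TNFDEX and 31.2, 46.4 and 47.8 in DEX. The Slc1a2 region had 70.5, 25.8 and 43.2 in TNFDEX and 34.2, 38.2 and 39.2 in DEX. The Slc1a4 region had 66.8 and 46.9 in TNFDEX 1 and TNFDEX 3, no peak in TNFDEX 2, and 41.6, 53.0 and 45.7 in DEX. Of the 41 member regions called in TNFDEX, 41 had a peak in TNFDEX 1, 40 in TNFDEX 3 and 28 in TNFDEX 2.

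Slc7a11 had fewer peaks in TNFDEX 2 and TNFDEX 3 than in TNFDEX 1. The region 2.848 kb downstream of its start had 56.0, 13.7 and 25.5 in TNFDEX and 26.8, 37.7 and 31.4 in DEX, and the region at -20.14 kb had 22.8, 10.2 and 14.8 in TNFDEX and 14.9, 16.3 and 15.1 in DEX. The regions at 1.101 and 55.16 kb had a peak in TNFDEX 1 alone among the TNFDEX libraries, with 22.0 and 43.1, and the remaining pair had peaks in TNFDEX 1 and TNFDEX 3. At each of the 6 regions TNFDEX 1 was the highest TNFDEX library. The light chain genes Slc7a5 and Slc7a6 also lacked a TNFDEX 2 peak, with 22.8 and 14.0 at the Slc7a5 region and 24.1 and 27.5 at the Slc7a6 region in TNFDEX 1 and TNFDEX 3. The Slc38a1 region, in contrast, had 41.9, 23.5 and 51.0 in TNFDEX, within the range of 17.3 to 55.6 in DEX.

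With limma, 18 member regions had a value in all 6 libraries and 0 of them changed, with 0 at an unadjusted p under 0.05. Of all 4023 regions tested, 2 passed (0.0497%) and 269 had an unadjusted p under 0.05. The log2 changes of the 18 regions ran from -0.38 at the Slc7a11 region 2.848 kb downstream of the start to 0.47 at the Slc6a18 region, with 13 above 0 and 5 below. Their median was 0.06, beside -0.02 for all regions tested, and their adjusted p-values ran from 0.798 to 1.000. The Slc38a4 region had a log2 change of 0.05 (SE 0.25, 95% interval -0.52 to 0.61), and the Slc43a2 region in Pitpna had -0.36 (SE 0.24, interval -0.89 to 0.18, adjusted p 0.798). The narrowest of the 18 intervals was -0.26 to 0.57, at the Slc7a2 region inside Pdgfrl, and the widest was -0.74 to 1.51, at a region inside Slc7a2.

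**Figure D5:**
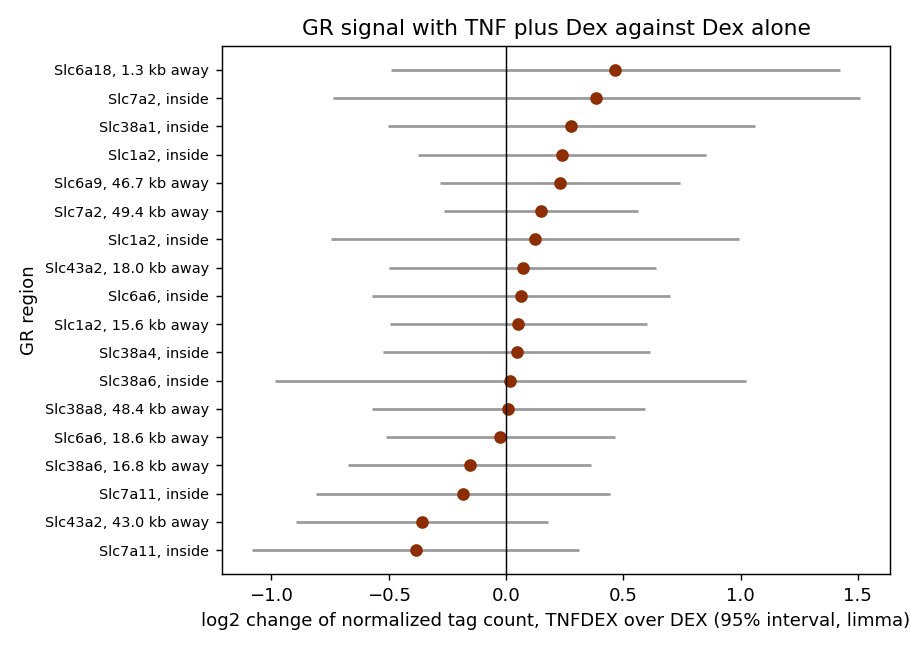
Log2 change of the normalized tag count in TNFDEX over DEX (points) with 95% intervals from limma (lines) at the 18 member regions with a value in all 6 libraries, each named by gene and distance. The points lie between -0.38 and 0.47 and every interval includes 0.

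Some regions differed in calls. In 2 of the 153 member regions seen in either group, each TNFDEX library had a peak and no DEX library did (1.31%, against 0.663% of all regions). The first lies inside Slc6a12, which carries betaine and GABA, at chr6:121356170-121356360, and also within 50 kb of Slc6a13, a GABA and taurine carrier of liver. It had 11.6, 20.3 and 30.8 in TNFDEX, and no peak was called in DEX, TNF or NI. The second, 38.05 kb from Slc43a3 and inside the overlapping genes Prg3 and P2rx3, had 10.4, 8.2 and 11.9 in TNFDEX and no peak elsewhere. Both are weak beside the strongest regions. The count of 2 became 6 without DEX 3 and 5 without TNFDEX 2.

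The opposite pattern was found in 1 region (0.654%, against 0.0626% of all regions). It lies inside Rhob, 28.58 kb from Slc7a15, a light chain family member, with no peak in TNFDEX and 12.9, 11.7 and 11.6 in DEX. It also had 9.1 in TNF 1 and 8.9 and 12.6 in NI 1 and NI 2. The count of 1 became 3 without DEX 3 and 4 without TNFDEX 1. The other differences rested on fewer libraries. Of the 13 regions called in TNFDEX but not DEX, 7 had a peak in DEX 3, the DEX library of high mitochondrial signal, and 6 had none in DEX. Of the 8 called in DEX but not TNFDEX, 5 had a peak in TNFDEX 1, the TNFDEX library of low mitochondrial signal. The part of the mitochondrial split in these calls was not tested.

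The 4 members with a region in TNFDEX and none in DEX were Slc6a12 and Slc6a13, described above, Slc43a1 and Slc6a16. Slc43a1, a carrier of branched-chain amino acids, shared with Slc43a3 a region with 14.5, 9.4 and 13.6 in TNFDEX and 10.8 in DEX 3. Slc6a16, a family member without a settled substrate, had 11.2, 12.9 and 10.7 in TNFDEX at 41.56 kb, inside Kash5, and 29.7 in DEX 3, which exceeded each TNFDEX value. The 2 members with a region in DEX and none in TNFDEX were Slc1a5 and Slc38a2. At the Slc38a2 region described above no TNFDEX library had a peak, TNFDEX 1 included. At the region inside Slc1a5, TNFDEX 1 had 10.8. A further region inside Slc1a2 had 42.7 and 39.5 in TNFDEX 1 and TNFDEX 3 and no DEX peak, with 28.4 in TNF 1. Its fold over the input was 5.84 to 8.33, low for so many tags. The second Slc38a4 region, 0.407 kb downstream of the printed start, had 11.6, 16.8 and 23.4 in TNFDEX against 30.6 in DEX 3 alone.

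TNF against NI showed few calls. TNF 2 held a peak at 1 of the 52 called regions while TNF 1 held one at 18. The strongest of these in TNF 1 were 43.1 near Slc1a4, 33.5 near Slc1a2, 29.4 near Slc38a2, 28.4 inside Slc1a2, 25.9 inside Slc7a11 at 55.16 kb and 23.8 near Slc7a6. TNF 1 was of low mitochondrial signal and TNF 2 of high, and the part of that split was not tested. Slc1a2 was the single member called in TNF, with 33.5 and 17.9 in TNF and 12.4, 21.7 and 9.7 in NI at the region in all libraries. The groups overlapped, and the log2 change was 0.48 (SE 0.39, 95% interval -0.30 to 1.26) with a limma adjusted p of 0.996, and 0.83 with library totals and an adjusted p of 0.994. Of the 152 regions tested, 0 passed (0.00%) and 0 had an unadjusted p under 0.05. No member region had a peak in both TNF libraries and in no NI library, out of 82 seen in either group, against 0.565% of all regions.

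TNFDEX against TNF and TNFDEX against NI use libraries of the comparisons above. In 22 of 141 member regions each TNFDEX library and no TNF library had a peak (15.6%, against 11.6% of all regions), and in 22 of 153 each TNFDEX library and no NI library did (14.4%, against 12.4%). At the Slc1a2 region the log2 change of TNFDEX over TNF was 0.15 with a limma adjusted p of 0.758, while 68 of 508 regions passed (13.4%), 61 higher and 7 lower, and 2 higher and 0 lower with library totals. Over NI it was 0.82 (SE 0.23) with an adjusted p of 0.0302, so the region rose, with 70.5, 25.8 and 43.2 in TNFDEX and 12.4, 21.7 and 9.7 in NI, and 30 of 152 regions passed (19.7%), 24 higher and 6 lower. That call was lost without TNFDEX 2, TNFDEX 3, NI 1 or NI 2, with changes of 0.69 to 0.91, and with library totals in place of scaling by the trimmed mean of M values, where it was 1.64 with an adjusted p of 0.255 and 5 regions passed as higher and 0 as lower.

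Other genes of amino acid handling, in 3 lists, had called GR regions at shares of 47.6% to 48.3% in TNFDEX and 38.1% to 56.5% in DEX. The shares were 37.5% and 34.4% for the transporters and 39.4% and 36.5% for all protein-coding genes. In NI, without Dex, the lists also had higher shares, 26.1% to 28.6%, beside 7.81% of the transporters and 14.9% of all genes. These differences were not tested. Of 29 genes of amino acid sensing and of the kinase complex mTORC1, 14 had a called region in TNFDEX, 15 in DEX, 3 in TNF and 8 in NI. The strongest region lay inside Fnip2, a partner of folliculin, with 100.03 ± 34.0 in TNFDEX and 71.4 ± 24.4 in DEX (SD, n = 3 each). Castor1, the arginine sensor, had 83.9 ± 31.9 in TNFDEX and 94.1 ± 42.0 in DEX, and Rptor, the mTORC1 scaffold, had 82.2 ± 28.0 and 81.9 ± 27.3 at a region near Baiap2. Rragc, a Rag GTPase, had 78.6 ± 39.0 in TNFDEX and 39.3 ± 5.73 in DEX from 2 libraries each, and Seh1l, a part of GATOR2, had 61.9 ± 17.6 and 36 ± 12.3 at a region nearest Ptpn2. No peak was called in NI or TNF at these 5 regions.

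Of 23 genes of the ATF4 response, 11 had a called region in TNFDEX, 13 in DEX, 1 in TNF and 6 in NI. Ddit4, an inhibitor of mTORC1 and a known GR target, had 302.2 ± 87.8 in TNFDEX and 312.9 ± 119.9 in DEX at a region 28.28 kb away, nearest to Dnajb12. These levels exceed those at any member region. Vldlr, a lipoprotein receptor, had 52.3 ± 40.5 in TNFDEX, 53.3 ± 16.4 in DEX, 49.2 in 1 TNF library and 35.9 ± 8.06 in 2 NI libraries. Eif2ak4, the kinase GCN2 that senses uncharged tRNA, had 46.3 ± 26.5 in TNFDEX and 48.1 ± 12.1 in DEX. Phgdh, the first enzyme of serine synthesis, had 44.0 ± 21.9 and 35.8 ± 11 at a region nearest Zfp697, and Trib3, a pseudokinase induced by ATF4, had 47.4 ± 23.4 in TNFDEX and 37.0 ± 1.06 in DEX from 2 libraries each, nearest to Nrsn2.

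Of 21 other amino acid and peptide transporters, 10 had a called region in TNFDEX, 8 in DEX, 1 in TNF and 6 in NI. Slc25a13, the mitochondrial aspartate and glutamate carrier of liver, had 183.6 ± 60.1 in TNFDEX and 167.1 ± 116.1 in DEX at 2.56 kb, and Slc25a38, the mitochondrial glycine carrier, had 107.7 ± 31.9 and 92.7 ± 83.1 near Mobp. Slc16a10, a carrier of aromatic amino acids, had a region inside the gene in all groups, with 74.8 ± 27.0 in TNFDEX, 72.1 ± 15 in DEX, 24.8 ± 21.5 in 2 TNF libraries and 25.5 ± 17.1 in NI. Slc25a22, a glutamate carrier, had 112.4 in 1 TNFDEX library and 63.1 ± 22.6 in 2 DEX libraries near Pnpla2, and Slc25a12, the paralogue of Slc25a13, had 38.1 ± 20.2 in TNFDEX and 53.0 in 1 DEX library.

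The remaining 36 members had no called region. In 8 of them no library had a peak, among them Slc6a8, Slc7a8, Slc7a13 and Slc38a9. The other 28 had peaks that no group repeated. They include Slc7a1, the arginine carrier that most tissues use. Separate places inside this gene had 50.2 in TNFDEX 1 and 35.8 in TNFDEX 3, at 6.52- and 6.91-fold over the input. The 28 also include Slc38a3 and Slc38a5, the system N glutamine carriers, and Slc1a1, Slc1a3, Slc1a6 and Slc1a7, the other glutamate carriers. The rest of them are Slc3a1, Slc6a2, Slc6a3, Slc6a7, Slc6a11, Slc6a14, Slc6a15, Slc6a17, Slc6a20b, Slc7a3, Slc7a4, Slc7a6os, Slc7a7, Slc7a9, Slc7a10, Slc7a12, Slc36a2, Slc36a3, Slc36a4, Slc38a10 and Slc38a11. Slc38a3, a glutamine carrier of liver, had 7 scattered regions of 7.3 to 17.4. By family, a region was called with TNFDEX in 3 of 3 Slc43a, 5 of 11 Slc38a, 6 of 16 Slc7a, 7 of 21 Slc6a, 2 of 7 Slc1a, 1 of 4 Slc36a and 0 of 2 Slc3a genes, and with DEX in 2, 6, 6, 4, 3, 1 and 0 of them. Over all protein-coding genes the shares were 39.4% in TNFDEX and 36.5% in DEX. Slc43a1 counts only through the region it shares with Slc43a3. The pair Slc6a12 and Slc6a13 counts through a single shared region, as does the pair Slc6a18 and Slc6a19. Differences between families were not tested.

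The distance rule decided some memberships. Just inside its limit were the Slc7a2 region at 49.43 kb and the Slc38a8 region at 48.35 kb. Just outside were a pair of strong regions at Usp18, 56.94 and 55.84 kb from Slc6a13, with 229.0 ± 172.0 and 123.8 ± 109.6 in TNFDEX and 200.6 ± 32.7 and 91.0 ± 15.8 in DEX (SD, n = 3 each), and a region at Cebpa, 51.25 kb from Slc7a10, with 23.1 in TNFDEX, 29.5 in DEX, 18.3 in TNF and 28.0 in NI. A further region at Usp18, 59.4 kb from Slc6a13, had 36.1 ± 5.69 in DEX (SD, n = 3) and no peak in TNFDEX.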

How the data were processed

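GR ChIP-seq of BWTG3 cells was analysed from 1 peak list per library (3 TNFDEX, 3 DEX, 2 TNF and 3 NI). The submitters' processing notes name HOMER 4.6, Bowtie 1.0.0 and CASAVA 1.8, with mm10 as the build. How reads were trimmed or filtered, and what was done with duplicates, is not given in the sources used. Per the file headers, HOMER findPeaks ran in factor mode on each library against 1 input, requiring a false discovery rate of 0.001 and 4-fold enrichment over both the input and the surrounding 10000 bp. The deposited signal is the authors' normalized tag count, scaled to 20000000 tags per library. The deposited ratio is the authors' fold of each peak over the input, used here only to describe or filter peaks. The input sample itself was not analysed here.

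Genes came from a RefSeq table of GRCm38.p6, which has no exons, so exonic and intronic regions were not separated. Regions were peaks sharing at least 1 bp, called in a group with 2 libraries or more. Windows are centred on each library's own peaks, so no count model was run. The test of signal was limma 3.58.1 (R 4.3.3) on the log2 of the normalized tag count, without a pseudocount since values exceed 0. TMM factors (trimmed mean of M values) were computed over regions called in every library of both groups, and p-values were adjusted over these regions by Benjamini and Hochberg. The script was tested on simulated data. Deviations of same-numbered DEX and NI libraries correlated at 0.517, 0.54 and 0.678 over the tested regions. Same-numbered libraries of these groups also share low or high mitochondrial signal, so pairing by replicate number cannot be told apart from that split. In the other comparisons the numbers were not taken as pairs. Python 3.11.15, numpy 2.4.6, pandas 2.3.3 and matplotlib 3.10.9 were used.

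Named regions are those in every library of one group and none of the other, those past the limma threshold, the 8 strongest, and the first 5 genes of each other list by mean. Samtor and Slc66a4 were not found in the gene table. The members, lists and tests were chosen with earlier results of these data known. The weakest peak near a member in a library held 12 to 17 tags, which makes the counting error of weak peaks large.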

Additional observations from a re-analysis of the deposited data

How the results depend on the processing

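Counts near the members depended on the window and on how many peaks were used. In the order TNFDEX, DEX, TNF, NI, a called region was found for 40, 37, 5 and 9 members with a window of 100 kb. With 25 kb the DEX count was 14 and the NI count 3. With the 2524 strongest peaks of each library the TNFDEX count was 9 and the DEX count 10. The NI count was 0 with peaks of at least 15 normalized tags, 2 with peaks at least 8-fold over the input, and 1 when every library was needed. When a region counted only for its nearest protein-coding gene, a choice made after seeing the data, the counts in that order were 13, 13, 0 and 2. Shares of all protein-coding genes or of all regions under these settings are not given, here or in the next paragraph. Whether the members moved differently from the background was thus not tested.

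The 19 members with a region in DEX and none in NI became 12 with 25 kb, 30 with 100 kb, 9 with equal numbers of peaks and 12 by nearest gene. The 20 regions in every DEX and no NI library became 12, 33, 7 and 11. The regions in every TNFDEX and no DEX library, 2 in number, became 0 with at least 15 normalized tags, 1 with 8-fold over the input, 1 with 25 kb, 0 with equal numbers of peaks and 1 by nearest gene. The single region in every DEX and no TNFDEX library became 0, 0, 0, 0 and 0 under these and 2 with 100 kb. The cause was not tested.

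Without one replicate, the counts of members with a region ranged over 19 to 24 for TNFDEX, 18 to 19 for DEX, 15 to 20 for TNF and 1 to 5 for NI, members gained in DEX over 16 to 21, regions in every DEX and no NI library over 20 to 26, those in every TNFDEX and no DEX library over 2 to 6, and those in every DEX and no TNFDEX library over 1 to 4. Called member regions ranged over 0 to 1 for TNFDEX against TNF and 0 to 1 for TNFDEX against NI.

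For signal, the Slc1a2 region passed in DEX against NI (1 member region, not 0) with the replicate block (adjusted p 0.0265) and with mitochondrial signal as a term (0.0238). In TNFDEX against NI 0 member regions passed with library totals. The replicate block changed no other call at a member region. Over all regions, calls in DEX against NI numbered 29, 63 with the replicate block, 70 with the mitochondrial term and 15 to 146 without one replicate. In TNFDEX against DEX they numbered 2, 36, 61 and 0 to 32, and 0 with library totals. In TNFDEX against TNF they numbered 68, 175 with the mitochondrial term, 2 with library totals and 37 to 532 without one replicate. In TNFDEX against NI they numbered 30, 51 with the replicate block, 60 with the mitochondrial term, 5 with library totals and 10 to 261, and in TNF against NI 0 and up to 3 without one replicate. Same-numbered libraries correlated at 0.372, -0.367 and 0.575 in TNFDEX against DEX, so the numbers were not taken as pairs there.

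Uncalled changes that turned sign in TNFDEX against DEX were Slc38a4 (-0.15 with the mitochondrial term, -0.098 to 0.25 without one replicate), Slc1a2 (-0.079 to 0.17) and Slc6a6 (0.13 with library totals, -0.092 to 0.13 without one replicate). In TNFDEX against TNF, Slc1a2 ranged from -0.17 to 0.31. With a mean of at least 20 normalized tags, no member region was left to test in TNF against NI. The normalized tag counts limit all of this, since a library without a peak gives no value.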
